A study of Mus musculus with 24 samples.

Results

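The genes that carry the interleukin-4 (IL-4) and IL-13 signal were followed in sorted cells of the mouse ileum, 10 in all: the receptor chains Il4ra, Il13ra1, Il13ra2 and Il2rg, the transcription factor Stat6, the kinases Jak1, Jak3 and Tyk2, and the feedback inhibitors Socs1 and Cish. They are listed by name for their known place in the pathway, and all 10 were present among the 39056 genes of the count table, of which 23189 had at least 1 count. The table held 24 RNA-seq libraries, 12 from live CD45+ cells (hematopoietic cells) and 12 from live CD45- cells (epithelial, endothelial and stromal cells), sorted from ileum without Peyer's patches after part of the epithelial wash had been added back to the lamina propria. The mice were C57BL/6 (C57BL/6 J in the study's methods), male and female, and 9.0 to 10.3 weeks old, and every group was homozygous for an Il4ra allele flanked by loxP sites (Il4ra flox/flox). Mice without Cre (Il4ra f/f) were compared with mice that also carried Vil1cre, in which the villin promoter drives Cre in intestinal epithelial cells (Il4ra ΔIEC). Each Il4ra genotype was studied in Hoil1+/+ mice and in Hoil1-/- mice, giving 4 genotypes with 3 libraries in each fraction. Hoil1 is the study's name for Rbck1, which encodes HOIL1, a subunit of the linear ubiquitin chain assembly complex, and Hoil1-/- mice keep a low level of an N-terminal part of the protein. The study left 3 libraries out as outliers: replicate 1 of CD45+ Hoil1-/- Il4ra f/f, replicate 3 of CD45+ Hoil1-/- Il4ra ΔIEC and replicate 3 of CD45- Hoil1-/- Il4ra f/f. Tests used the other 21 libraries (10 CD45+ and 11 CD45-). Levels per kilobase, marker sums and the levels of other genes of the pathway cover all 24 unless stated. The total per library was 6.03 to 68.3 M counts in CD45- cells and 14.9 to 76.8 M counts in CD45+ cells. The labels do not say which CD45+ and CD45- libraries came from the same mouse, so p-values measure the spread between libraries.

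IL-4 and IL-13 share the chain IL-4Rα, encoded by Il4ra. Paired with the common gamma chain (Il2rg), it forms a receptor for IL-4 alone that is typical of hematopoietic cells, and paired with IL-13Rα1 (Il13ra1) it forms a receptor for both cytokines that is typical of epithelial, stromal and myeloid cells. JAK1, JAK3 and TYK2 bound to these chains phosphorylate STAT6, which enters the nucleus and turns on target genes, while SOCS1 and CIS (Cish) restrain cytokine signaling and IL-13Rα2 binds IL-13 as a decoy.

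The labels of the fractions and of the Hoil1 genotype were checked first. The summed level of 5 hematopoietic markers (Laptm5 the most abundant) was 2954 to 3803 counts per 1000000 (CPM) in the CD45+ libraries and 1.22 to 39.8 CPM in the CD45- libraries, and each of the 5 was at 0 in some CD45- library. The sum of 6 epithelial markers was 869 to 10681 CPM in CD45- and 50.8 to 355 CPM in CD45+ libraries, and that of 6 endothelial markers was 889 to 5411 and 53.7 to 155 CPM. Rbck1 averaged 133 ± 24.4 CPM (SD, n = 6) in CD45+ Hoil1+/+ libraries and 9.66 ± 4.67 (n = 4) in Hoil1-/- libraries. In CD45- cells the means were 93.1 ± 13.1 CPM (n = 6) and 4.90 ± 2.21 (n = 5). The Hoil1+/+ and Hoil1-/- libraries did not overlap in either fraction, and Rbck1 was lower by the quasi-likelihood test of edgeR (log2 fold change -3.81, SE 0.32, adjusted p = 0.0069 in CD45+; -4.23, SE 0.33, adjusted p = 0.00106 in CD45-). With all 24 libraries the CD45- value was -4.50 and was not called (edgeR adjusted p = 0.201), the left-out library being at 0 CPM. The counts of Il4ra cover the whole gene and the CD45- fraction mixes epithelial with endothelial and stromal cells, so the total of Il4ra does not check its deletion in the epithelium. In sorted bulk RNA, fewer cells of a type and less RNA per cell cannot be told apart.

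The regulatory sequence is shown for the 2 inhibitors, Cish and Socs1, because these were the members whose promoters held a searched motif. RefSeq promoters on GRCm38.p6, from 250 bases before to 50 bases after the annotated start, were matched for 10 of 10 members and searched on both strands for TTC and GAA 3 bases apart (a spacing bound by several STAT proteins), for TTC and GAA 4 bases apart (the spacing preferred by STAT6) and for GAAA and GAAA 2 bases apart (a core of interferon response elements). The stretches below run 5′ to 3′ on the strand of the gene, with the matches in capitals.
Cish, chr9:107296654-107296683, plus strand: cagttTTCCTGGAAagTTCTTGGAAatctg
Socs1, chr16:10785597-10785626, minus strand: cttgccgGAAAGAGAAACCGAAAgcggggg
Cish held 2 matches of the first motif, from position 0 to 19 with the start base as 0. At least 1 match was present in 8.29% of 32817 promoters, and 2 or more in 0.457%. Socs1 held 2 overlapping matches of the GAAA motif from position -83 to -68, a motif present in 3.43% of promoters and at least 2 times in 0.222%. No member held the motif with 4 bases between TTC and GAA in this window (6.94% of promoters). A match describes letters only, and the data hold no measurement of binding.

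Levels were compared between genes as CPM per kilobase of exon, with the exons of all annotated transcripts of a gene merged (6419 bases for Cish, 2908 for Socs1). This length can exceed that of the transcript expressed, so the order of the members depends in part on the annotation. In CD45+ cells the common gamma chain led, and in CD45- cells Stat6 led. Over the 12 CD45+ libraries, Il2rg had a mean of 60.0 ± 12.9 CPM per kilobase (SD, n = 12). It was followed by Stat6 at 32.3 ± 6.43, Il4ra at 30.7 ± 13.9, Jak1 at 29.4 ± 7.87 and Jak3 at 21.9 ± 9.05 CPM per kilobase. The lower part of the order was Cish at 14.1 ± 8.78, Tyk2 at 11.8 ± 2.50, Il13ra1 at 11.2 ± 5.31 and Socs1 at 5.95 ± 2.45 CPM per kilobase, with Il13ra2 at 0. Of the neighbours in this order with counts, only Il2rg and Stat6 were further apart than their SDs (means ± SD that did not overlap).

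Over the 12 CD45- libraries, Stat6 averaged 23.3 ± 4.25 CPM per kilobase, ahead of Jak1 at 18.5 ± 6.38, Il4ra at 13.9 ± 5.89 and Jak3 at 12 ± 6.47. Il13ra1 came next at 11.2 ± 2.88 CPM per kilobase, then Il2rg at 9.23 ± 4.22, Cish at 6.32 ± 2.03, Tyk2 at 4.71 ± 1.84 and Socs1 at 3.43 ± 1.82, with Il13ra2 last at 0.266 ± 0.626. All of these neighbours lay within their SDs of each other apart from Socs1 and Il13ra2. Il13ra1 stood below Il2rg in CD45+ cells and above it in CD45- cells, although the CD45- means of the pair were within their SDs.

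**Figure D1:**
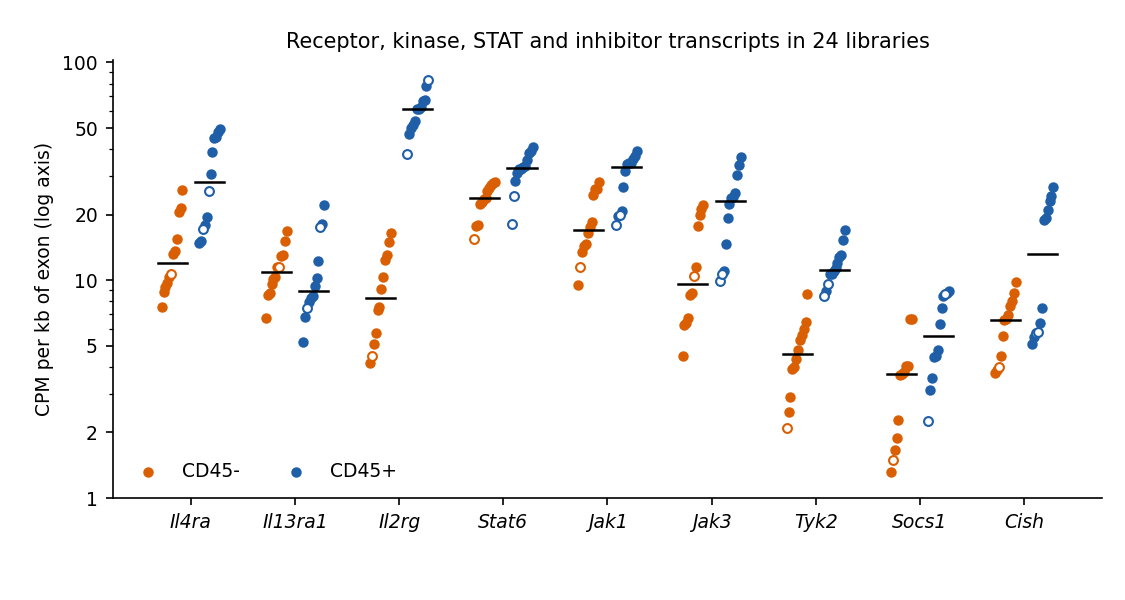
Level of 9 members (Il13ra2, mostly at 0, is not drawn) in CPM per kilobase of exon on a log axis, 1 point per library of the CD45+ and CD45- fractions, with a line at the median and open symbols for the 3 libraries that the study left out. Il2rg is the highest member in CD45+ cells (mean 60.0) and lies at 9.23 in CD45- cells, while Il13ra1 has a mean of 11.2 in both fractions.

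The first comparison set CD45+ against CD45- cells over all genotypes, each genotype weighted equally. All 10 members passed the filter on low counts here, and 9 were compared, since Il13ra2 had groups without counts. Of the 9, 8 were higher in CD45+ cells and none was lower, with Il13ra1 not passing the test. Of all 18778 genes tested, 24.5% were called higher and 25.1% lower (adjusted p under 0.05). The median log2 fold change was 1.07 over the 9 members and 0.03 over all genes tested.

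Ranges and medians of the members in this comparison are over the 11 CD45- and 10 CD45+ libraries tested. Among the receptor chains, the common gamma chain Il2rg (chromosome X, 101264378 to 101268255 of GRCm38), which also serves the receptors of IL-2, IL-7, IL-9, IL-15 and IL-21, had the largest difference. It ranged from 9.97 to 39.3 CPM with a median of 21.7 in CD45- libraries, and from 112 to 187 CPM with a median of 146 in CD45+ libraries. No CD45- library reached a CD45+ library, and this held with all 24 libraries. Il2rg was 6.91-fold higher in CD45+ cells (log2 fold change 2.79, SE 0.17, edgeR adjusted p = 3.08e-09). In the CD45- library with the lowest hematopoietic marker sum (Hoil1+/+ Il4ra f/f replicate 2, 1.22 CPM), Il2rg was at 29.6 CPM. The whole gene lies within Gm20489 on the same strand (3878 shared bases), which had 0 counts in all 24 libraries, and how reads of overlapping genes were assigned is not given in the sources used here.

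Il4ra itself (chromosome 7, 125552120 to 125579474) was 2.14-fold higher in CD45+ cells. CD45- libraries ran from 45.0 to 156 CPM with a median of 79.4, and CD45+ libraries from 89.3 to 296 CPM with a median of 209. The 2 ranges overlapped, the 4 lowest CD45+ libraries lying inside the range of the CD45- libraries. The log2 fold change was 1.10 (SE 0.25, edgeR adjusted p = 0.00143).

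Il13ra1 (chromosome X, 36112110 to 36171259), the chain that lets IL-4Rα bind IL-13, was the member that did not pass this test. Its range was 25 to 62.8 CPM with a median of 38.2 in CD45- cells and 19.4 to 82.3 CPM with a median of 33.2 in CD45+ cells. The CD45+ libraries lay both above and below the CD45- range (log2 fold change -0.17, SE 0.20, edgeR adjusted p = 0.554).

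Il13ra2 (chromosome X, 147383476 to 147429192), the decoy receptor, was detected in 3 libraries, all of them CD45- and Hoil1-/-. Replicate 3 of Il4ra f/f, one of the libraries left out by the study, had 44 counts (4.90 CPM). Replicates 2 and 3 of Il4ra ΔIEC had 31 counts (1.16 CPM) and 9 counts (1.23 CPM). The other 3 CD45- Hoil1-/- libraries, the 6 CD45- Hoil1+/+ libraries and the 12 CD45+ libraries had no count. A count of 0 allows up to 3 counts, which is 0.0365 to 0.381 CPM in the CD45- Hoil1+/+ libraries and 0.0381 to 0.186 CPM in the CD45+ libraries (counting error only). The gene did not pass the filter within CD45+ cells, and it had groups without counts in the other comparisons, so no fold change is given.

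Of the kinases and their substrate, Tyk2 and Stat6 separated the fractions and Jak1 and Jak3 overlapped. Tyk2 (chromosome 9, 21104068 to 21131243), which docks on IL-13Rα1, ranged from 17 to 59.2 CPM in CD45- and from 61.4 to 117 CPM in CD45+ libraries. It was 2.48-fold higher in CD45+ cells (log2 fold change 1.31, SE 0.20, edgeR adjusted p = 4.47e-05). Stat6 (chromosome 10, 127642986 to 127660957) ranged from 78.6 to 124 CPM and from 126 to 180 CPM, a 1.45-fold difference (log2 0.53, SE 0.11, edgeR adjusted p = 0.000631). Groups without overlap, CD45+ above CD45-, were thus seen for 3 members, Il2rg, Tyk2 and Stat6, against 8.49% of all genes tested, and for Il2rg alone when the 3 left-out libraries were included. Stat6 shares 40 bases with Nab2 on the opposite strand, whose counts came to 33.2% of those of Stat6.

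Jak1 (chromosome 4, 101152367 to 101265282), the kinase bound to IL-4Rα, ranged from 68.8 to 205 CPM with a median of 128 in CD45- and from 143 to 283 CPM with a median of 249 in CD45+ libraries. Its log2 fold change was 0.75 (SE 0.19, edgeR adjusted p = 0.00344). Jak3 (chromosome 8, 71676296 to 71690575), the partner of the common gamma chain, ranged from 23.9 to 119 CPM with a median of 47.0 and from 59.1 to 198 CPM with a median of 129. Its log2 fold change was 1.07 (SE 0.31, edgeR adjusted p = 0.00881), or 2.09-fold. The fractions overlapped for both kinases, and each had its highest CD45- level (Jak1 at 205, Jak3 at 119 CPM) above the lowest CD45+ level. Jak3 overlaps Insl3 on the same strand over 1362 bases, and Insl3 had 0.638% of the counts of Jak3.

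Both inhibitors were higher in CD45+ cells. Cish (chromosome 9, 107296026 to 107302784), a target of STAT5, ranged from 24 to 62.9 CPM with a median of 42.5 in CD45- and from 32.9 to 172 CPM with a median of 123 in CD45+ libraries (2.55-fold, log2 1.35, SE 0.33, edgeR adjusted p = 0.00245). Socs1 (chromosome 16, 10782240 to 10785536), an inhibitor of JAK kinases, was the member with the lowest level after Il13ra2, at 3.81 to 19.3 CPM in CD45- and 9.12 to 26.1 CPM in CD45+ libraries. Its log2 fold change was 0.78 (SE 0.30, edgeR adjusted p = 0.0405). The call of Socs1 was lost with the size factors of DESeq2 in edgeR (log2 0.70, adjusted p = 0.0608) and without any 1 of 11 of the 21 libraries.

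**Figure D2:**
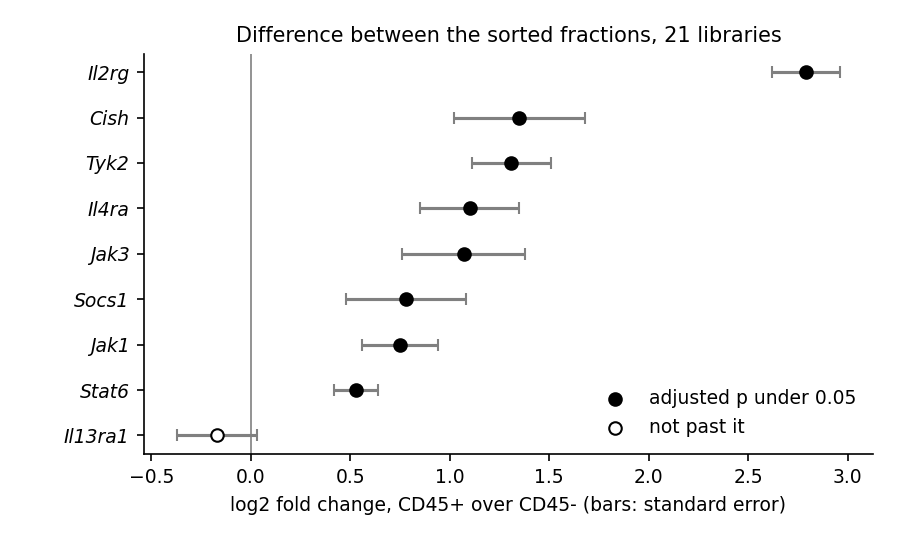
Log2 fold change of CD45+ against CD45- cells for the 9 tested members, from 21 libraries by edgeR, with bars of 1 SE. Il2rg is the highest at 2.79, the other called members lie between 0.53 and 1.35, and Il13ra1 lies at -0.17.

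The libraries of 1 fraction differed widely in Il4ra, by 3.48-fold from lowest to highest in CD45- and by 3.31-fold in CD45+ cells. Among CD45+ libraries of Hoil1+/+ mice, Il4ra was at 108, 117 and 272 CPM with Il4ra f/f and at 183, 234 and 287 CPM with Il4ra ΔIEC. Among Hoil1-/- mice, the tested Il4ra f/f libraries were at 91.3 and 89.3 CPM and the left-out replicate 1 at 154 CPM, while the tested Il4ra ΔIEC libraries were at 296 and 271 CPM and the left-out replicate 3 at 103 CPM. Among the tested libraries, the 2 Hoil1-/- Il4ra f/f libraries were thus the lowest and a Hoil1-/- Il4ra ΔIEC library was the highest, but the third f/f library of the wild type lay among the ΔIEC libraries.

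The second set of comparisons asked, within each fraction, how these transcripts differed with HOIL1, with epithelial Il4ra, and with the 2 together. No member was called in any of these 10 comparisons (edgeR, adjusted p under 0.05), which were fitted over 17029 genes in CD45+ and 16453 genes in CD45- cells. Of the 90 estimates 6 had an unadjusted p under 0.05, and DESeq2, which was run without the filter, called 2. These were Il4ra for the deletion in CD45+ cells, where DESeq2 called 1.92% of 20854 genes with a count, and Il2rg for the interaction in CD45- cells, where it called 7.56% of 20792 genes. Calls were rare among all genes too. In CD45+ cells 0.00587% of genes were called for the effect of Hoil1 loss as a mean of both Il4ra genotypes (the averaged Hoil1 effect), 0% within Il4ra f/f, 0% within Il4ra ΔIEC, 0.00587% for the Il4ra deletion averaged over the Hoil1 genotypes and 0% for the interaction, which is the Hoil1 effect in Il4ra ΔIEC minus that in Il4ra f/f. In CD45- cells the same shares were 0.0182%, 0.0365%, 0.00608%, 0% and 0%. Rbck1 itself was not called within either Il4ra genotype in CD45+ cells. Its log2 fold change there was -3.90 in Il4ra f/f (edgeR adjusted p = 0.0949) and -3.71 in Il4ra ΔIEC (edgeR adjusted p = 0.115). In CD45- cells it was called in both (edgeR adjusted p = 0.0188 and 0.0115). Within a fraction these comparisons share libraries, and their results are not independent of each other.

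The deletion comparison in CD45+ cells gave the lowest adjusted p of any member over the 5 CD45+ comparisons. Il4ra had a mean of 136 ± 77.2 CPM (SD, n = 5) with Il4ra f/f and 254 ± 46.2 CPM (n = 5) with Il4ra ΔIEC. The ranges overlapped through 1 Il4ra f/f library, Hoil1+/+ replicate 3 at 272 CPM. The log2 fold change was 1.09 (SE 0.28, unadjusted p = 0.00288, edgeR adjusted p = 0.283), and 10.6% of all genes had an unadjusted p under 0.05. DESeq2 gave a like size with an adjusted p of 0.0122 (log2 1.08), and with the left-out libraries the log2 fold change was 0.74 (edgeR adjusted p = 0.888). Cre is driven by the villin promoter, and the CD45+ libraries held epithelial markers at 50.8 to 355 CPM. Plasma cell sums were 20030 to 49498 CPM in the tested Il4ra f/f libraries and 8857 to 16310 CPM in the Il4ra ΔIEC libraries, without overlap, while the left-out libraries were at 15656 and 40791 CPM. Sums of mast cell and eosinophil markers were 434 to 1617 and 138 to 551 CPM in the tested libraries. The part of these cells in the Il4ra level was not tested. In CD45- cells, where the epithelium was sorted, Il4ra had a mean of 86.3 ± 41.0 CPM (n = 5) in Il4ra f/f and 84.0 ± 36.4 CPM (n = 6) in Il4ra ΔIEC libraries (log2 fold change 0.02, SE 0.35, edgeR adjusted p = 1).

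Il4ra was the highest of the members in this comparison. All 9 tested members lay between -0.45 and 1.09 in CD45+ cells, with a median log2 fold change of 0.12 (-0.01 over all genes). In CD45- cells they lay between -0.35 and 0.53 with a median of 0.14 (0.06 over all genes) and adjusted p-values from 0.815 upward in edgeR.

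**Figure D3:**
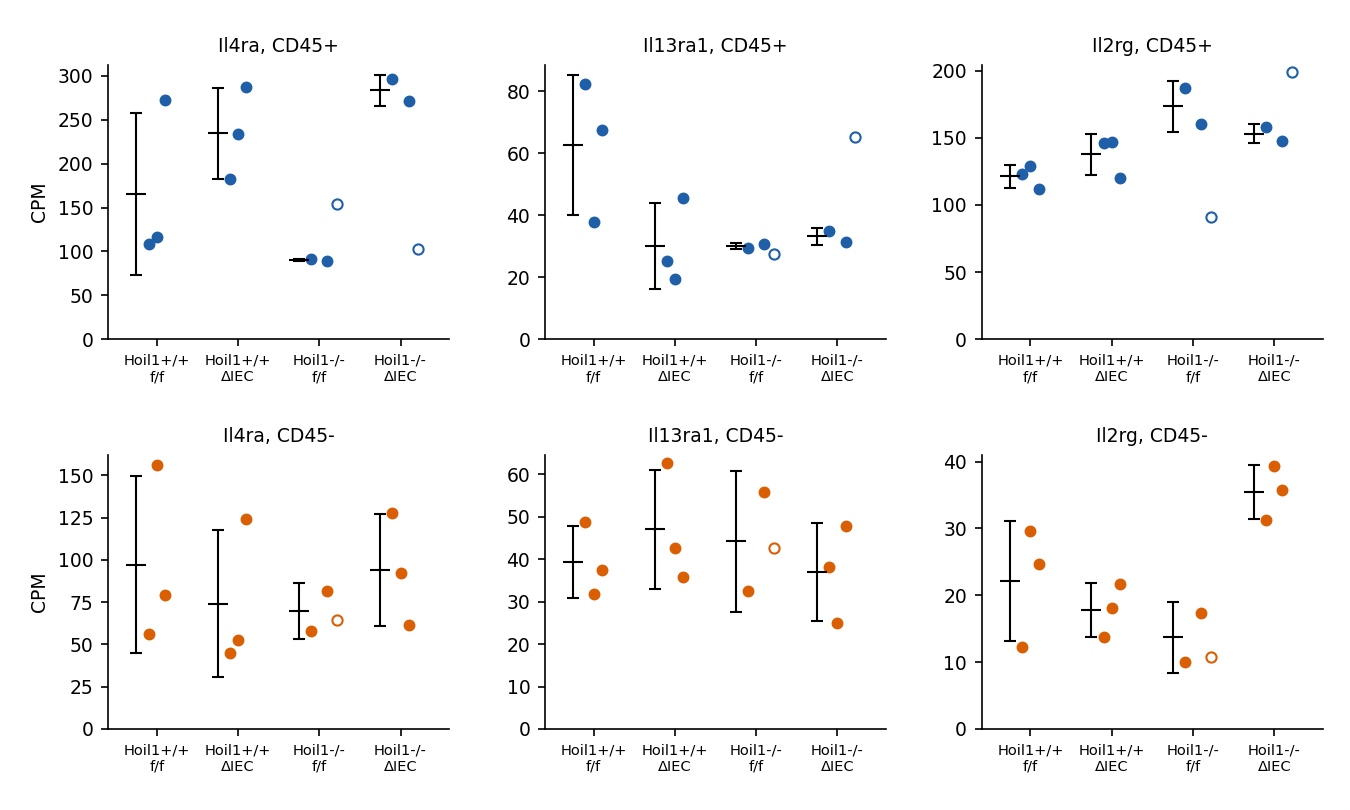
CPM of Il4ra, Il13ra1 and Il2rg in each library by genotype and fraction, with the mean and SD of the tested libraries and open symbols for the 3 libraries that the study left out. In CD45+ cells Il4ra lies at 183 to 296 CPM in the tested Il4ra ΔIEC libraries and at 89.3 to 272 CPM in the Il4ra f/f libraries.

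The Hoil1 effect on the members of CD45+ cells had no common direction. Averaged over the Il4ra genotypes, 4 of 9 members had a log2 fold change above 0 and 5 below, with a range of -0.47 to 0.32 and a median of -0.00 (-0.05 over all genes). Within Il4ra f/f, 3 members had an unadjusted p under 0.05, against 5.27% of all genes: Il13ra1, Il4ra and Il2rg, and none passed the adjustment. Il13ra1 was at 82.3, 37.9 and 67.5 CPM in Hoil1+/+ and at 29.5 and 30.9 CPM in Hoil1-/- libraries, with 27.6 CPM in the left-out replicate. All Hoil1-/- libraries lay below all Hoil1+/+ libraries (log2 fold change -1.06, SE 0.40, unadjusted p = 0.0243, edgeR adjusted p = 0.836). Il4ra within Il4ra f/f, with the values above, gave -0.89 (SE 0.40, unadjusted p = 0.0499, edgeR adjusted p = 0.836). Without Hoil1+/+ replicate 3 the value was -0.34 (edgeR adjusted p = 0.932).

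For Il2rg the estimate had the opposite sign in these mice. Its CD45+ levels with Il4ra f/f were 123, 129 and 112 CPM for Hoil1+/+ and 187 and 160 CPM for Hoil1-/- mice. The left-out Hoil1-/- replicate was at 90.7 CPM, below all of the Hoil1+/+ libraries. The log2 fold change was 0.50 (SE 0.21, unadjusted p = 0.0362, edgeR adjusted p = 0.836) and 0.24 with the left-out libraries (edgeR adjusted p = 1). In all, 1 member lay without overlap above and 3 (Il4ra, Il13ra1 and Stat6) below the Hoil1+/+ Il4ra f/f libraries, where 9.35% and 7.3% of all genes did. With the left-out library the counts were 0 and 2. In the same tested libraries, myeloid sums were 4727 to 7652 CPM in Hoil1+/+ and 3933 and 3846 CPM in Hoil1-/- mice. Mast cell and eosinophil sums were 736 to 1617 against 434 and 551 CPM. Sums of type 2 innate lymphoid cell markers were 34.3 to 77.4 against 627 and 147 CPM, and B cell sums 153 to 569 against 590 and 614 CPM. T cell and plasma cell sums overlapped. The left-out library was at 8592, 1242, 135 and 137 CPM, in this order. The part of these cells was not tested.

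Within Il4ra ΔIEC the Hoil1 effect on the members of CD45+ cells spanned -0.25 to 0.26 with a median of 0.07 (-0.06 over all genes). Il4ra gave a log2 fold change of 0.26 (SE 0.38, edgeR adjusted p = 0.956), and with the left-out libraries it turned to -0.05. Il2rg was at 146, 147 and 120 CPM in Hoil1+/+ and at 158 and 148 CPM in Hoil1-/- libraries, with 199 CPM in the left-out one, an ordering without overlap that 13.8% of all genes shared. The interaction was 1.14 for Il4ra (SE 0.55, edgeR adjusted p = 0.701) and 1.19 for Il13ra1 (SE 0.55, edgeR adjusted p = 0.701), so a difference of the Hoil1 effect between the Il4ra genotypes was not shown. For Il4ra it was 0.59 without Hoil1+/+ Il4ra f/f replicate 3 (edgeR adjusted p = 0.839).

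In CD45- cells the member with the lowest adjusted p was Il2rg in the interaction. With Il4ra f/f it was at 12.2, 29.6 and 24.7 CPM in Hoil1+/+ mice and at 9.97 and 17.4 CPM in Hoil1-/- mice, with 10.7 CPM in the left-out replicate. With Il4ra ΔIEC the values were 13.7, 18.1 and 21.7 CPM for Hoil1+/+ and 31.2, 39.3 and 35.8 CPM for Hoil1-/- mice. The Hoil1-/- Il4ra ΔIEC libraries were the 3 highest of all CD45- libraries. Set against the Hoil1+/+ Il4ra ΔIEC libraries alone, 5.45% of all genes likewise lay higher without overlap. The log2 fold change within Il4ra ΔIEC was 1.01 (SE 0.37, unadjusted p = 0.0192, edgeR adjusted p = 0.603). The interaction was 1.70 (SE 0.56, unadjusted p = 0.0109, edgeR adjusted p = 0.161), where 20.7% of all genes had an unadjusted p under 0.05, and DESeq2 gave 1.64 with an adjusted p of 0.0465. The hematopoietic marker sums of these 3 libraries were 11.2, 7.23 and 2.05 CPM, inside the range of the other CD45- libraries. Their endothelial sums were 4447, 5411 and 2151 CPM, against 1505, 1412 and 4285 CPM for Hoil1+/+ Il4ra ΔIEC. Their stromal sums were 5974, 8675 and 2233 CPM, against 1429, 696 and 2445 CPM. Epithelial sums were 1834, 869 and 4454 CPM against 9395, 7332 and 2383 CPM, and the part of these shifts was not tested.

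Outside the interaction, the edgeR adjusted p-values of the members in CD45- cells were 0.406 or higher. The averaged Hoil1 effect ran from -0.29 to 0.78 with a median of -0.08, the same as over all genes. Within Il4ra f/f it ran from -0.81 to 0.86 with a median of -0.29 (-0.17 over all genes), and within Il4ra ΔIEC from -0.35 to 1.01 with a median of 0.33 (0.06 over all genes). Il4ra gave log2 fold changes of -0.05 (SE 0.35), -0.47 (SE 0.52) and 0.37 (SE 0.46) in these 3 comparisons, with edgeR adjusted p-values of 1, 0.682 and 0.876. The interaction for Il4ra was 0.84 (SE 0.70, edgeR adjusted p = 0.516), and the median over the members was 0.75 (0.29 over all genes).

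**Figure D4:**
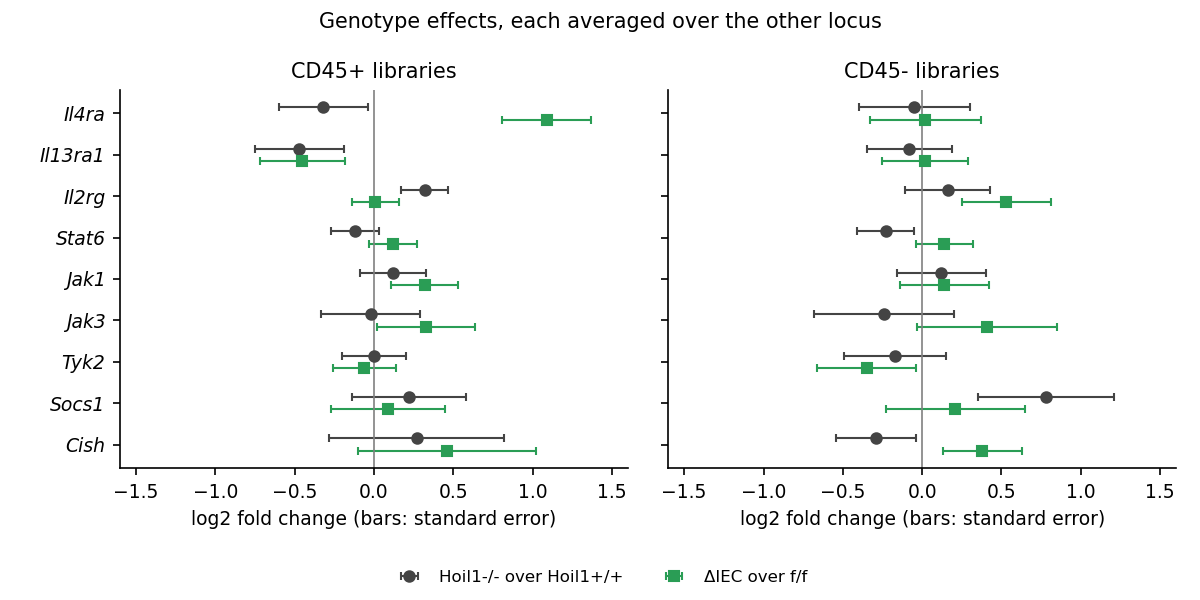
Log2 fold changes of the 9 tested members for Hoil1-/- over Hoil1+/+ (circles) and for Il4ra ΔIEC over f/f (squares), each as a mean over the genotypes of the other locus, in CD45+ and CD45- libraries, with bars of 1 SE. No estimate had an adjusted p under 0.05, and the highest in CD45+ cells is that of Il4ra for the deletion, at 1.09.

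The cell type markers that moved with the members were then read from the same libraries, by pairings chosen after the values were seen. In CD45- cells the 4 libraries with the highest endothelial sums were Hoil1+/+ Il4ra f/f replicate 2 (4692 CPM), Hoil1+/+ Il4ra ΔIEC replicate 3 (4285 CPM) and Hoil1-/- Il4ra ΔIEC replicates 1 and 2 (4447 and 5411 CPM), and the next was at 2967 CPM. These were also the 4 highest libraries for Il4ra (156, 124, 128 and 92.4 CPM), for Jak1 and for Jak3. Il2rg and Stat6 shared 3 of the 4, and Il13ra1 had 3 of its 4 lowest libraries among them. Pecam1 was the most abundant of the 6 endothelial markers, and all 6 were detected in every CD45- library. By the epithelial sum, 3 of the 4 highest libraries were among the 4 lowest for Il4ra. The part of cell composition in the levels of the members was not tested. The share of all genes with the same highest or lowest libraries is not given here, so these orders are not shown to be particular to the members.

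Similar pairings were seen in CD45+ cells. The 3 libraries with the highest T cell sums (2689, 2798 and 2204 CPM, all Hoil1+/+) were the 3 highest for Jak3, at 180, 198 and 163 CPM. Cish fell into 2 ranges, 122 to 172 CPM in 6 libraries and 32.9 to 47.8 CPM in the other 6. The high range held the 3 libraries with the highest T cell sums and the 3 with the highest sums of type 2 innate lymphoid cell (ILC2) markers (627, 568 and 382 CPM, all Hoil1-/-). The 3 libraries with the highest plasma cell sums were the 3 highest for Il13ra1 and the 3 lowest for Socs1, and the 3 with the highest myeloid sums were the 3 lowest for Jak1, Jak3 and Tyk2. The study had left out 2 of these 3 myeloid-high libraries and 1 of the 3 plasma-high ones. Il4ra shared none of its 3 highest libraries with the T cell or myeloid sums and 1 each with the ILC2, plasma cell and B cell sums. Immunoglobulin genes took 13.2 to 46.4% of the counts of CD45+ libraries. These orders were not tested, and the share of all genes with like orders is not given here.

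**Figure D5:**
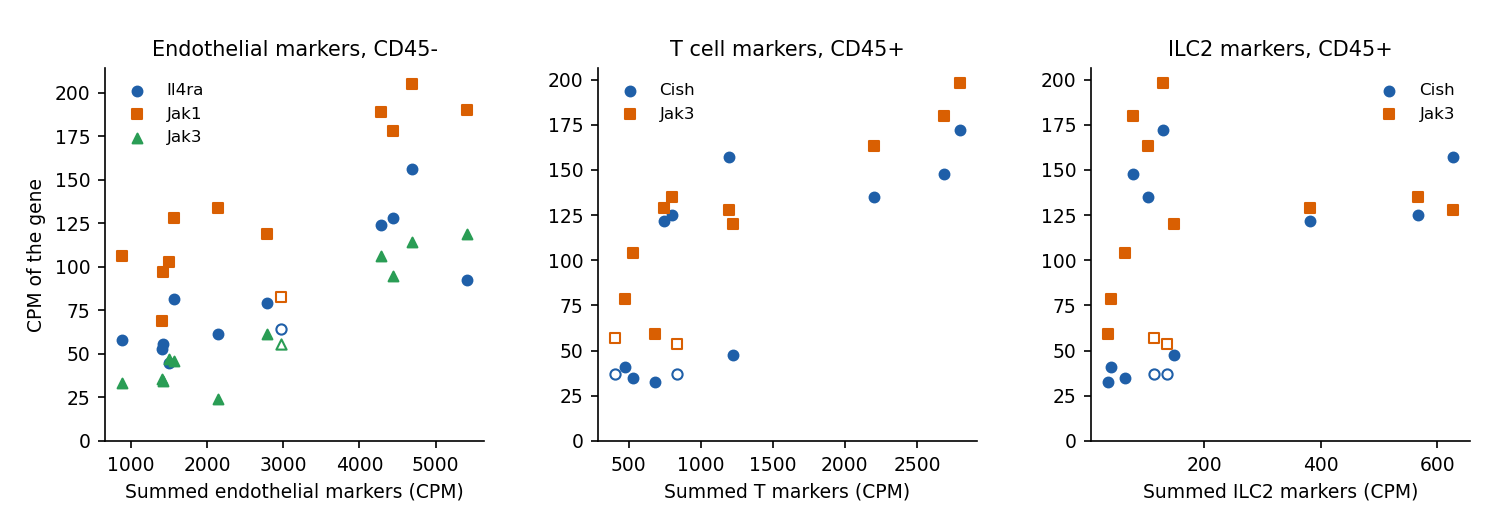
CPM of Il4ra, Jak1 and Jak3 against the summed CPM of endothelial markers in CD45- libraries, and of Cish and Jak3 against those of T cell and ILC2 markers in CD45+ libraries, 1 point per library and gene, with open symbols for the libraries that the study left out. The 4 CD45- libraries with the highest endothelial sums (4285 to 5411 CPM) are the 4 highest for Il4ra, and the CD45+ libraries fall into a high (122 to 172 CPM) and a low (32.9 to 47.8 CPM) range of Cish.

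The genes whose profile was most like that of Il4ra differed between the fractions. Over the 11 tested CD45- libraries and 16452 other genes, the 5 closest by Pearson's r of log2(CPM + 0.5) included Puf60 (0.94), Bag5 (0.93), Boc (0.92) and Ankrd33b (0.92). Jak1 ranked 80 (r = 0.87) and Jak3 ranked 278 (r = 0.84), while Il13ra1 had r = -0.56. Over the 10 tested CD45+ libraries and 17028 other genes they were Sde2 (0.98), Ifrd1 (0.97), Pias4 (0.96), Ubald1 (0.96) and Zswim4 (0.96). Pias4 encodes a SUMO ligase of the family named for inhibiting STAT proteins. Of the members Stat6 was the closest there, at rank 630 (r = 0.66). The gene at rank 101 still reached r = 0.86 in CD45- and 0.85 in CD45+ cells, and all points share library depth and cell composition.

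The rest of the pathway was read from 9 lists with 73 genes in all, of which 70 were tested between the fractions. In this comparison 45 were higher and 14 lower in CD45+ cells, where 49.6% of all genes were called in either direction. Medians of lists below use the ratio of mean levels for genes that a group lacked altogether.

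Of the ligands, Il4 and Il13 were found in CD45+ libraries only. In CD45- cells both were at 0 in all 12 libraries, with 3 counts equal to 0.0365 to 0.41 CPM, and each had counts in 11 of the 12 CD45+ libraries. Il13 had a median of 3.31 CPM and a highest level of 45.7 CPM. The 3 highest libraries for Il13 were all Hoil1-/-, Il4ra f/f replicate 2 (37.4 CPM) and Il4ra ΔIEC replicates 1 and 2 (42.2 and 45.7 CPM), and these were the 3 libraries with the highest ILC2 sums. The other Hoil1-/- libraries were at 3.24 CPM (Il4ra f/f replicate 3) and, among those left out by the study, at 13.5 and 5.54 CPM. Hoil1+/+ libraries had 0 to 3.38 CPM, so the tested groups overlapped. The Hoil1 effect on Il13, averaged over the Il4ra genotypes, was 4.24 (SE 0.96, unadjusted p = 0.00136, edgeR adjusted p = 0.516), and DESeq2 called it among 0.686% of 20854 genes. That on Il4 was 1.67 (SE 0.53, edgeR adjusted p = 0.783). Il4 reached 15 and 16.7 CPM in the same Il4ra ΔIEC libraries and 0.95 to 7.75 CPM in the other tested ones. In the list of 8 ligands, 7 were tested, Il4, Il13, Il2 and Il21 were higher and Tslp lower in CD45+ cells, and the median log2 fold change was 1.72. Il2 and Tslp were near 0 in both fractions. Over all 24 libraries Tslp had a mean of 0.839 CPM in CD45- and 0.762 CPM in CD45+ cells. Its medians were 0.764 and 0 CPM, and its highest level (5.77 CPM) was in a CD45+ library. Il2 had means of 0.17 and 0.509 CPM. The calls of Il2 and Il21 were lost without CD45+ Hoil1-/- Il4ra f/f replicate 2, and that of Il2 also without CD45- Hoil1-/- Il4ra f/f replicate 2.

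Chains of the common gamma chain receptors, with the related Crlf2, were higher in CD45+ cells for 6 of 7 genes (median log2 5.83), the exception being Il15ra (-0.42, edgeR adjusted p = 0.43). Il2rb, the signaling chain for IL-2 and IL-15, was at 51.8 to 380 CPM in CD45+ and at 0 to 8.75 CPM in CD45- libraries (log2 10.29, SE 1.02, edgeR adjusted p = 4.98e-07). Crlf2, the TSLP receptor chain, was higher by a log2 fold change of 1.99 (SE 0.13, edgeR adjusted p = 9.71e-09), with all CD45- libraries (12.9 to 35.0 CPM) below all CD45+ libraries (65.2 to 148 CPM). Il2ra had 4.84 (SE 0.68, edgeR adjusted p = 1.79e-05). Il7r was at 4.77 to 172 CPM in CD45+ cells and had a count in 4 of 12 CD45- libraries, and Il9r and Il21r, which a CD45- group lacked, were higher as well.

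Of the other JAK and STAT genes, 5 of 7 were higher (median log2 1.27). Stat5a, the factor downstream of IL-2 and related cytokines, had a log2 fold change of 2.35 (SE 0.26, edgeR adjusted p = 1.79e-06), Stat5b 1.27 (SE 0.19, edgeR adjusted p = 3.77e-05) and Jak2 1.06 (SE 0.14, edgeR adjusted p = 9.86e-06). Stat4 had counts in 4 of 12 CD45- libraries and was at 6.73 to 34.5 CPM in CD45+ cells. Stat3 (0.28) and Stat2 (0.31) did not pass the test.

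The regulators and the insulin receptor substrate arm, a STAT6-independent branch of the IL-4 receptor, were split. Of 12 SOCS and phosphatase regulators, 6 were higher, 2 lower and 4 did not pass the test (median log2 0.65). Ptpn6, which encodes the hematopoietic phosphatase SHP-1, had 3.96 (SE 0.49, edgeR adjusted p = 4.93e-06), Ptpn1 1.99 and Grb2 1.78, whereas Socs2 had -1.31 (SE 0.17, edgeR adjusted p = 7.26e-06) and Socs5 -0.86 (SE 0.26, edgeR adjusted p = 0.0102). Socs2 was at 46.9 to 93.0 CPM in CD45- and 12.5 to 38.2 CPM in CD45+ libraries, without overlap. Irs2 was higher in CD45+ cells (2.04, SE 0.35, edgeR adjusted p = 0.000142), as were Pik3cd (6.95) and Pik3r1 (1.47). Irs1 was lower: it was at 2.03 to 19.5 CPM in CD45- cells and had a count in 2 of 12 CD45+ libraries.

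Genes known to respond to IL-4 or IL-13 were split by the cell type in which they respond. All 12 macrophage response genes were higher in CD45+ cells (median log2 7.83), with Mrc1, the mannose receptor, at 121 to 733 CPM. Among them the call of Egr2 (log2 1.58) was lost without CD45- Hoil1-/- Il4ra f/f replicate 1. Of 12 epithelial response genes, 11 were tested and 10 were lower in CD45+ cells (median log2 -6.79), among them the goblet cell genes Fcgbp (-8.49), Muc2 (-7.82), Clca1 (-7.27) and Tff3 (-7.05) and the antimicrobial gene Ang4 (-5.90). B cell response genes were higher for 4 of 5 tested (median log2 9.74) and T cell response genes for 6 of 6 (median log2 5.65), Gata3 having 7.73 and Batf 5.03.

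With genotype, 1 of these 73 genes was called by edgeR. Trpm5, a cation channel of tuft cells and a member of the epithelial response list, was at 8.48, 6.11 and 12.4 CPM in CD45- cells of Hoil1+/+ mice and at 203 and 228 CPM in those of Hoil1-/- mice, both with Il4ra f/f. The same 2 libraries had the highest epithelial sums of all CD45- libraries (10681 and 10218 CPM, against 1366 to 5375 CPM for Hoil1+/+ Il4ra f/f) and tuft marker sums, which include Trpm5, of 478 and 668 CPM, against 25.2 to 58.5 CPM. The part of these in the result was not tested. The left-out Hoil1-/- replicate was at 2.56 CPM, below all of the Hoil1+/+ libraries. In Il4ra ΔIEC mice it was at 9.02 to 15 CPM in Hoil1+/+ and at 6.64 to 12.8 CPM in Hoil1-/- libraries. Within Il4ra f/f the log2 fold change was 4.58 (SE 0.44, edgeR adjusted p = 0.00756), and averaged over the Il4ra genotypes 2.26 (SE 0.28, edgeR adjusted p = 0.0497). With the left-out library included, the values were 4.01 and 1.98 and neither was called. The averaged call was also lost in 9 of 11 leave-one-out fits (adjusted p up to 0.219) and with the size factors of DESeq2 (adjusted p = 0.0523), and the call within Il4ra f/f in 2 of 11. Retnlb, an epithelial product induced by IL-4 and IL-13, had no count in the 6 CD45- Hoil1+/+ libraries. In CD45- cells of Hoil1-/- Il4ra f/f mice Retnlb was at 8.48 and 55 CPM in the tested libraries and at 21.1 CPM in the left-out one. With Hoil1-/- Il4ra ΔIEC it was at 2.04, 0 and 1.37 CPM. Its groups without counts give no fold change. For the averaged Hoil1 effect in CD45- cells DESeq2 called 4 of the list genes, Dclk1, Retnlb, Socs3 and Trpm5.

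The unadjusted tests of these lists, read against all genes, were as follows. For the averaged Hoil1 effect in CD45+ cells, 16 of 69 tested list genes were higher and 1 lower with an unadjusted p under 0.05, beside 3.11% and 2.74% of all genes. Of these, 5 were macrophage response genes. That list of 12 had a median log2 fold change of -0.16 within Il4ra f/f (0.00 over all genes) and 1.19 within Il4ra ΔIEC (-0.06 over all genes). For the interaction its median was 1.35 (-0.11 over all genes) and none was called (lowest edgeR adjusted p = 0.591). For the averaged Hoil1 effect in CD45- cells 5 of 54 list genes were higher and 2 lower by unadjusted p (1.62% and 3.66% of all genes). Of 11 epithelial response genes tested there, 11 lay above 0 within Il4ra f/f (41.6% of all genes). Within Il4ra ΔIEC 4 lay above 0 (54% of all genes). For the interaction 0 lay above 0 (58.2% of all genes) and 4 were lower, where 20.7% of all genes had an unadjusted p under 0.05. The part of the ILC2, tuft, epithelial and myeloid marker sums in these counts was not tested.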

How the data were processed

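Per the labels and the study's methods, poly-A RNA of sorted cells was sequenced as paired reads, trimmed with cutadapt, aligned to mm10 (GRCm38) with STAR and counted per gene with featureCounts. The library kit selects a strand, and whether counting used the strand is not given in the sources used here. The deposited values are raw counts per gene. Ensembl IDs were matched without version to GENCODE M21 (38872 of 39056), which also gave positions and exon lengths. Promoters are from RefSeq (GRCm38.p6).

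Printed CPM were scaled by the trimmed mean of M values (TMM) over all 24 libraries. Tests used edgeR 4.0.16 in R 4.3.3 (quasi-likelihood test, TMM, filterByExpr with a minimum count of 10 and total of 15, Benjamini-Hochberg adjustment over all genes tested, threshold 0.05), with group means as coefficients, over 21 libraries for the fractions and within each fraction for 10 genotype comparisons. SE is the log2 fold change over the square root of F. Levels near 0 are limited by depth. The script was tested on simulated data.

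Alternatives were all 24 libraries, DESeq2 1.42.0, its size factors in edgeR, no filter, no immunoglobulin genes, and each library left out. Named genes were the members, Rbck1, the 5 genes most like Il4ra in each fraction, and up to 6 called genes per list. Others were named after their values were seen (Il15ra, Stat2, Stat3, Retnlb, and Il4 and Il13 by genotype). Some genes that this rule names are not reported here. The members and lists were chosen with earlier results of these data known.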

Additional observations from a re-analysis of the deposited data

Results flagged for a closer look

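Il13ra2, the decoy receptor of IL-13, had 44 counts (4.9 CPM) in replicate 3 of CD45- Hoil1-/- Il4ra f/f, a library that the study left out and the tests did not use, while the 6 CD45- Hoil1+/+ libraries had none. That library had 2 neighbours of its genotype without a count, and its log2 CPM correlated with theirs at 0.632 and 0.756 (Pearson's r across genes, which are not independent replicates), against 0.834 between the other 2.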

How the results depend on the processing

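Between the fractions, the 9 tested members kept their direction in every alternative and 8 of them their side of the threshold, Socs1 being the exception (adjusted p = 0.0155 to 0.126 over the leave-one-out fits), and the number of genes called ran from 8472 to 9355 when each library was left out in turn. Counts of genes called by genotype were small and moved with the setting. With all 24 libraries they were 2 for the averaged Hoil1 effect, 1 within Il4ra f/f, 1 within Il4ra ΔIEC and 0 for the Il4ra deletion in CD45+ cells, and 0, 0 and 0 for the first 3 in CD45- cells. DESeq2 called 143, 100, 184, 400 and 191 genes in CD45+ cells (averaged, Il4ra f/f, Il4ra ΔIEC, deletion, interaction) and 206, 652, 140, 199 and 1572 in CD45- cells. Without the filter 6 (averaged) and 3 (Il4ra f/f) were called in CD45+ and 11 (Il4ra f/f) and 1 (interaction) in CD45- cells. Without immunoglobulin genes 2 were called within Il4ra f/f in CD45+ and 11 in CD45- cells, and with the DESeq2 size factors 1 for the averaged effect in CD45- cells. The causes were not tested.

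Leaving out each library gave 1 to 10 calls (averaged), 0 to 7 (Il4ra f/f), 0 to 0 (Il4ra ΔIEC), 0 to 8 (deletion) and 0 to 0 (interaction) in CD45+ cells, and 1 to 173, 0 to 474, 0 to 2, 0 to 220 and 0 to 1199 in CD45- cells. The CD45- maxima of 173, 474 and 220 came without Hoil1-/- Il4ra f/f replicate 2, and that of 1199 without Hoil1+/+ Il4ra ΔIEC replicate 3. The CD45+ maxima of 10 and 7 came without Hoil1-/- Il4ra f/f replicate 3, and that of 8 without Hoil1+/+ Il4ra f/f replicate 3. Groups then left with 1 library are assumed to vary like the others.

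Il4ra changed sign within Il4ra ΔIEC in CD45+ cells with all libraries (-0.05), and over the leave-one-out fits in CD45- cells for the averaged Hoil1 effect (-0.20 to 0.23), within Il4ra f/f (-0.73 to 0.04) and for the deletion (-0.26 to 0.27). The 1.09 of Il4ra for the deletion in CD45+ cells ran from 0.98 to 1.36 (edgeR adjusted p = 0.0724 to 0.774). All 59 calls of list genes between the fractions were kept with DESeq2, the other size factors, all libraries and no filter, Ighg1 was lost without immunoglobulin genes, and Egr2, Il2 and Il21 were lost in leave-one-out fits. Of the 76 other member estimates by genotype, none was called under any alternative (lowest adjusted p 0.149). Their signs were less stable: 11 of the 76 changed sign with all libraries and 36 in leave-one-out fits. No paired analysis was run, because the labels carry no replicate numbers or mouse names. Ages match between the fractions in the Il4ra ΔIEC groups, where 2 of 3 libraries share an age. In the Il4ra f/f groups they match only in part. Ages of 9.0 and 9.1 weeks occur in both fractions of Hoil1+/+ mice, and 9.4 and 9.9 weeks in both fractions of Hoil1-/- mice. Whether libraries of equal age came from the same mouse is not given. Depth limits the genes near 0, Il13ra2 first.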
